A study of Mus musculus with 12 samples.

Results

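Whether alternate-day fasting altered the transcriptional response of the eye to sodium iodate (NaIO3) was examined by the diet by injection interaction over all 12 libraries of the series, 3 in each of 4 groups. Male wild type C57BL/6J mice were fed ad libitum (AL) or kept on intermittent fasting (IF), here alternate-day fasting, for 12 weeks from the age of 8 weeks. They then received a single intraperitoneal injection of PBS or of 25 mg/kg NaIO3. The diets were continued after the injection until tissue was taken 7 days later. This gives the groups AL + PBS, IF + PBS, AL + NaIO3 and IF + NaIO3. For each gene the product term was computed as the NaIO3 effect on IF (IF + NaIO3 minus IF + PBS) minus the NaIO3 effect on AL (AL + NaIO3 minus AL + PBS), on the log2 scale of counts per library scaled to a common depth (CPM). A product term of 0 means that NaIO3 changed the gene by the same factor on both diets. Of 21930 genes in the count table, 15970 passed the filter on low counts and have a product term.

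NaIO3 is an oxidant that is toxic to the retinal pigment epithelium (RPE), the pigmented layer that supports the photoreceptors, and loss of the RPE is followed by photoreceptor degeneration. Injured retina is known for reactive Müller cells and astrocytes, acute phase proteins induced through STAT3, and recruited or activated macrophages and microglia. Photoreceptors depend on glycolysis and on cholesterol made by the mevalonate pathway, which is set by the SREBP transcription factors and their inhibitor INSIG1.

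The totals per library were between 26364665 and 43046950 counts. The labels name the tissue as RPE, choroid and sclera, while the extraction was from eye cups. Rod genes were abundant in every library: a list of 22 rod markers summed to between 26070 and 86203 CPM, and 25 RPE markers summed to between 1793 and 4038 CPM. The 3 AL + NaIO3 libraries were unlike each other. Their rod marker sums were 86203, 50850 and 26070 CPM in replicates 1, 2 and 3, against 68373 to 83894 CPM in the other 9 libraries. Their macrophage and microglia marker sums (23 genes) were 471.8, 328.6 and 2035 CPM, against 148.6 to 187.4 CPM in the other 9. Replicate 3 also held 1802 CPM of choroid and sclera stroma markers, where the other 11 libraries held 173.6 to 346.7 CPM. The median within-group SD of log2 CPM over all genes was 0.31 in AL + NaIO3, against 0.14 in AL + PBS, 0.19 in IF + PBS and 0.16 in IF + NaIO3. Lens markers (12 genes) summed to 320.9 CPM in AL + PBS replicate 2 and to at most 13.6 CPM elsewhere. In bulk tissue, fewer cells of a type and less RNA per cell cannot be told apart. Each library is taken here to be a separate mouse. The methods state that both eye cups of a mouse were used together for qPCR, and do not state the number of mice per library for RNA-seq.

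The product term passed an adjusted p of 0.05 in 5 genes, which is 0.0313% of those tested (edgeR's quasi-likelihood test with Benjamini-Hochberg adjustment, as for all adjusted p-values below). Lcn2, Edn2 and Cebpd had a product term below 0: NaIO3 raised them on AL, and on IF their NaIO3 effect did not pass the threshold. Insig1 and the gene model Gm42669 had a product term above 0: NaIO3 lowered them on AL, and on IF their NaIO3 effect did not pass the threshold either. At an unadjusted p under 0.05, 811 genes had a product term above 0 (5.08%) and 1099 below 0 (6.88%). DESeq2 called 217 of 15312 genes from the same libraries (1.42%), 61 above 0 (0.398%) and 156 below 0 (1.02%), and these held all 5 genes called by edgeR. Limma voom with quality weights called 165 of 15970 genes, 86 above and 79 below 0.

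The proximal promoters of the called genes are shown because 3 of the 5 genes moved in opposite directions to the other 2 in the same libraries. The sequences are the 250 bases before the RefSeq start site on GRCm38.p6, which is the build of the deposited gene coordinates, and capitals mark the only match to the motifs searched. They were available for Lcn2 (minus strand, chr2:32387740-32387989), Edn2 (plus strand, chr4:120160956-120161205) and Insig1 (plus strand, chr5:28071162-28071411).
Lcn2: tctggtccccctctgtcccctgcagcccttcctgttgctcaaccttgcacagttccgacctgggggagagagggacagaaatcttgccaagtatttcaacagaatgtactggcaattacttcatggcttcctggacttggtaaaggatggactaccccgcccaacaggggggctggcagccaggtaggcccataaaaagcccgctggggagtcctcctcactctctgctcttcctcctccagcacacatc
Edn2: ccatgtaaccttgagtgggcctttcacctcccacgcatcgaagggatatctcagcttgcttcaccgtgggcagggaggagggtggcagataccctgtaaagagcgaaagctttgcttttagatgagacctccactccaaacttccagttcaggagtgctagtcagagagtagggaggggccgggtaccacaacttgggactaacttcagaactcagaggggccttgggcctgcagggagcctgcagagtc
Insig1: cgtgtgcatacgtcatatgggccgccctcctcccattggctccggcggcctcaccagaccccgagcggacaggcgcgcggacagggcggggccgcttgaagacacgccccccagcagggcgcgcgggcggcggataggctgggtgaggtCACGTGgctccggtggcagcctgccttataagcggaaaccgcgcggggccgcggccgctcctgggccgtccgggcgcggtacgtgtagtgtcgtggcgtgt
The windows searched ran from 250 bases before to 50 bases after the start, on both strands, in 12441 tested genes. The motifs were a STAT site (TTCNNNGAA, in 8.25% of genes), a kappaB-like string (GGGNNTTCC, 8.29%), a C/EBP-like string (TTGCNNCAA, 1.89%) and an AP-1 site (TGANTCA, 6.60%). The others were a cyclic AMP response element (TGACGTCA, 3.26%), an E-box (CACGTG, 10.9%), an interferon response element (GAAANNGAA, 8.62%) and a heat shock element (GAANNTTC, 7.27%). The Insig1 window held an E-box whose first base is 101 bases before the start. None of the 8 motifs occurred in these letters in the windows of Lcn2 or Edn2. Each string was searched with fixed spacing, so a site with other spacing was not counted. The Lcn2 sequence holds ttgctcaa, which differs from the C/EBP-like string only in having a shorter gap. The search therefore cannot decide whether sites for C/EBP or kappaB factors are absent from these windows, and nothing is drawn from it.

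Lcn2 encodes lipocalin 2, an iron-siderophore binding acute phase protein secreted by reactive glia and neutrophils (ENSMUSG00000026822, chromosome 2, 32384633 to 32388252, GRCm38). Its level was 4.26, 3.75 and 4.14 CPM in AL + PBS, 5.71, 7.48 and 4.35 CPM in IF + PBS, 53.2, 37.1 and 88.9 CPM in AL + NaIO3, and 4.53, 5.10 and 3.64 CPM in IF + NaIO3. Every AL + NaIO3 library was above the other 9, and the IF + NaIO3 range overlapped those of AL + PBS and IF + PBS, which did not overlap each other. The product term was -4.28 ± 0.41 (SE, n = 3 mice per group, adjusted p = 0.0020, edgeR). The NaIO3 effect was 3.88 ± 0.31 on AL and -0.40 ± 0.29 on IF, both as log2 fold change ± SE. Lcn2 also passed for the average effects of injection and of diet, at 1.74 and -1.61.

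Edn2 encodes endothelin 2, a peptide released by stressed photoreceptors that signals to Müller cells (ENSMUSG00000028635, chromosome 4, 120161206 to 120167360). It was at 3.01, 5.03 and 4.21 CPM in AL + PBS, 2.92, 2.71 and 1.62 CPM in IF + PBS, 41.5, 80.3 and 128 CPM in AL + NaIO3, and 2.24, 2.12 and 2.11 CPM in IF + NaIO3. The AL + NaIO3 libraries again stood above all the others, and the replicate with the fewest rod markers held the most Edn2. The product term was -4.50 ± 0.51 (SE, n = 3 per group, adjusted p = 0.00495, edgeR), from a NaIO3 effect of 4.34 ± 0.37 on AL and -0.16 ± 0.37 on IF.

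Cebpd encodes C/EBP delta, a transcription factor of the acute phase response (ENSMUSG00000071637, chromosome 16, 15887286 to 15891031). Its coordinates overlap those of Spidr, and reads of overlapping genes could have been divided. Cebpd was at 9.45, 11.3 and 12.2 CPM in AL + PBS, 8.60, 9.76 and 11.99 CPM in IF + PBS, 62.4, 66.9 and 103 CPM in AL + NaIO3, and 14.1, 14.0 and 11.7 CPM in IF + NaIO3. The product term was -2.43 ± 0.28 (SE, n = 3 per group, adjusted p = 0.00495, edgeR). NaIO3 changed it by 2.82 ± 0.21 on AL, past the threshold, and by 0.39 ± 0.20 on IF, which was not (adjusted p = 0.557). The product terms of Lcn2, Edn2 and Cebpd passed the threshold in 22 of 22 alternative settings, which include leaving out each library in turn.

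Insig1 encodes the endoplasmic reticulum protein that holds back SREBP processing when sterols are plentiful, and it is itself a target of SREBP (ENSMUSG00000045294, chromosome 5, 28071363 to 28078662). It was at 103, 107 and 105 CPM in AL + PBS, 82.6, 91.0 and 92.0 CPM in IF + PBS, 53.1, 53.5 and 42.3 CPM in AL + NaIO3, and 90.4, 96.3 and 95.8 CPM in IF + NaIO3. The AL + NaIO3 libraries lay below the other 9. The product term was 1.17 ± 0.15 (SE, n = 3 per group, adjusted p = 0.00981, edgeR). On AL the gene fell by 1.08 ± 0.11 on the log2 scale, and on IF its NaIO3 effect was 0.09 ± 0.10. Without AL + PBS replicate 3 the adjusted p of the product term was 0.0521, and it stayed under the threshold in the other 21 settings.

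Gm42669 is a gene model with no given name, outside the naming rule, and is given because the called genes are few (ENSMUSG00000106631, chromosome 5, 107507621 to 107580596). It was at 36.0, 34.3 and 32.1 CPM in AL + PBS, 42.6, 35.9 and 37.1 CPM in IF + PBS, 2.76, 5.94 and 1.94 CPM in AL + NaIO3, and 43.2, 25.8 and 32.7 CPM in IF + NaIO3. The levels in AL + NaIO3 were the lowest 3 of the 12. The product term was 3.10 ± 0.43 (SE, n = 3 per group, adjusted p = 0.0212, edgeR). Its coordinates overlap Btbd8, 1700028K03Rik and Glmn, so its reads may be shared with them. The call was lost in 7 of 22 settings, each of them leaving out 1 library: any of the 3 AL + PBS replicates, IF + PBS replicates 2 and 3, or IF + NaIO3 replicates 1 and 3 (adjusted p between 0.0569 and 0.121).

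**Figure D1:**
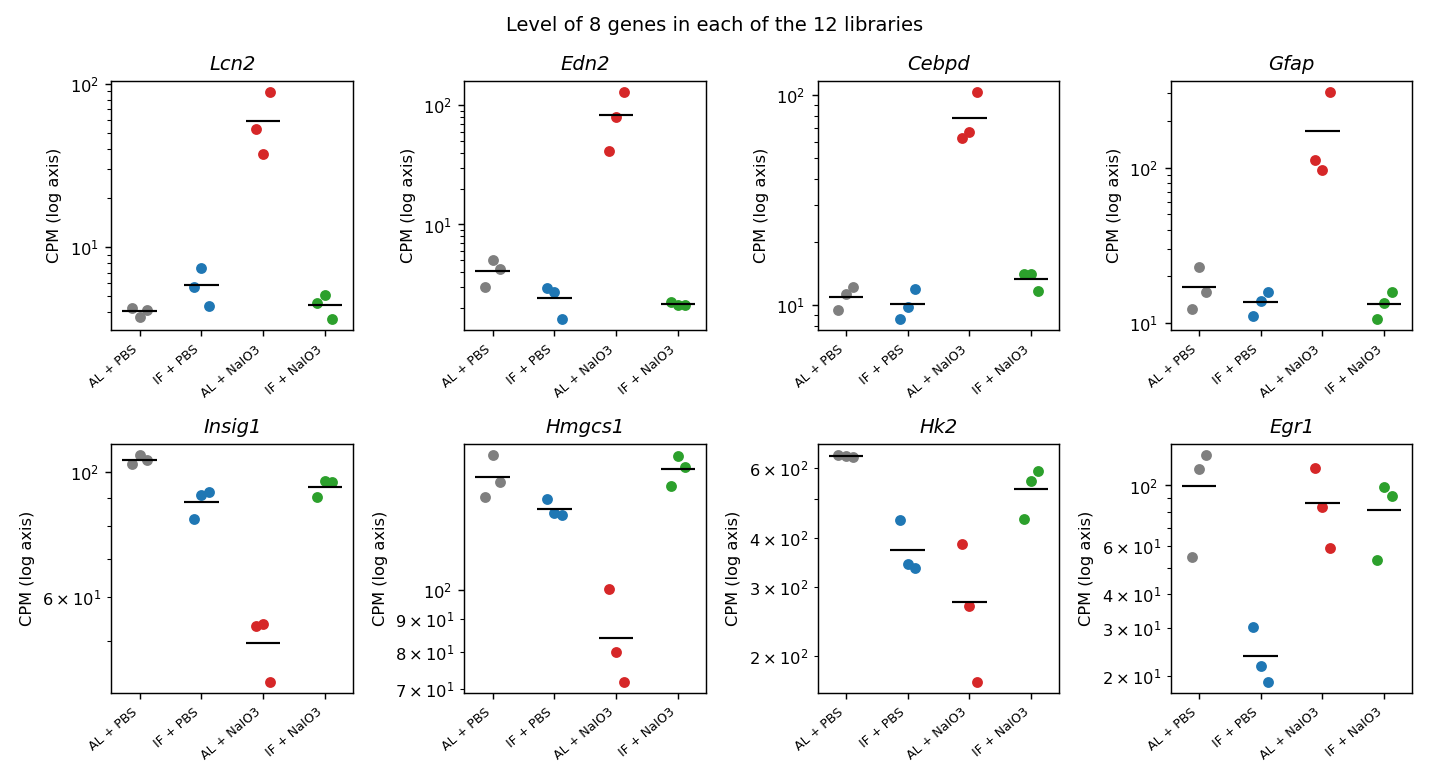
Level of 8 genes in each library, in CPM on a log axis. Points are the 3 mice of a group and bars are group means. The AL + NaIO3 libraries lie apart for Lcn2, Edn2, Cebpd, Gfap, Insig1 and Hmgcs1, IF + PBS is the low group for Egr1, and Hk2 is low in AL + NaIO3 replicates 2 and 3 with AL + PBS highest.

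The number of genes called for the effects that make up the interaction depended on the tool and on single libraries. In the same fit, NaIO3 against PBS passed the threshold for 181 genes on AL (1.13%, 152 higher and 29 lower) and for 0 genes on IF, where 1488 genes had an unadjusted p under 0.05. DESeq2 called 742 on AL and 20 on IF. IF against AL passed for 199 genes after NaIO3 (1.25%, 28 higher and 171 lower) and for 0 after PBS, where 1520 genes had an unadjusted p under 0.05. DESeq2 called 1058 after NaIO3 and 14 after PBS. Limma voom, which weights each library by its fit, gave AL + NaIO3 replicate 3 the lowest weight of the 12 (0.157) and gave the opposite order, with 256 genes for NaIO3 on AL and 677 on IF, and 186 for IF against AL after NaIO3 and 2040 after PBS. Limma on log2 FPKM, with either pseudocount, called 0 genes for NaIO3 on IF and for IF after PBS, against 103 and 147 for NaIO3 on AL and 139 and 207 for IF after NaIO3. For NaIO3 on AL, edgeR called 22 to 27 genes without 1 AL + PBS library, 64 to 114 without 1 IF + PBS library, 94 to 100 without 1 IF + NaIO3 library, and 1090, 331 and 132 without AL + NaIO3 replicates 1, 2 and 3. For IF against AL after NaIO3 it called 33 to 37 without 1 IF + NaIO3 library, 121 to 169 without 1 PBS library, and 2017 (741 higher and 1276 lower), 730 and 131 without AL + NaIO3 replicates 1, 2 and 3. For NaIO3 on IF and for IF after PBS it called at most 2 with any 1 library left out. Averaged over both diets, the injection changed 22 genes (0.138%), and averaged over both injections, the diet changed 38 (0.238%). Cebpd had the lowest p for the average injection effect and Edn2 for the average diet effect. Rgr, an opsin of the RPE and Müller cells, was an average injection call without a product term under 0.05: its mean was 522.6 CPM in AL + PBS, 634.5 in IF + PBS, 189.7 in AL + NaIO3 and 354.7 in IF + NaIO3 (average effect -1.15, adjusted p = 0.0115, edgeR; product 0.62, unadjusted p = 0.0659 in the same edgeR fit). Isyna1, which makes inositol, was an average diet call of the same kind, with means of 42.6 and 35.2 CPM on AL and 68.1 and 60.9 CPM on IF, after PBS and NaIO3. Its average diet effect was 0.73 (adjusted p = 0.0121, edgeR) and its product term was 0.11. Rgr and Isyna1 were chosen after their values were seen.

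**Figure D2:**
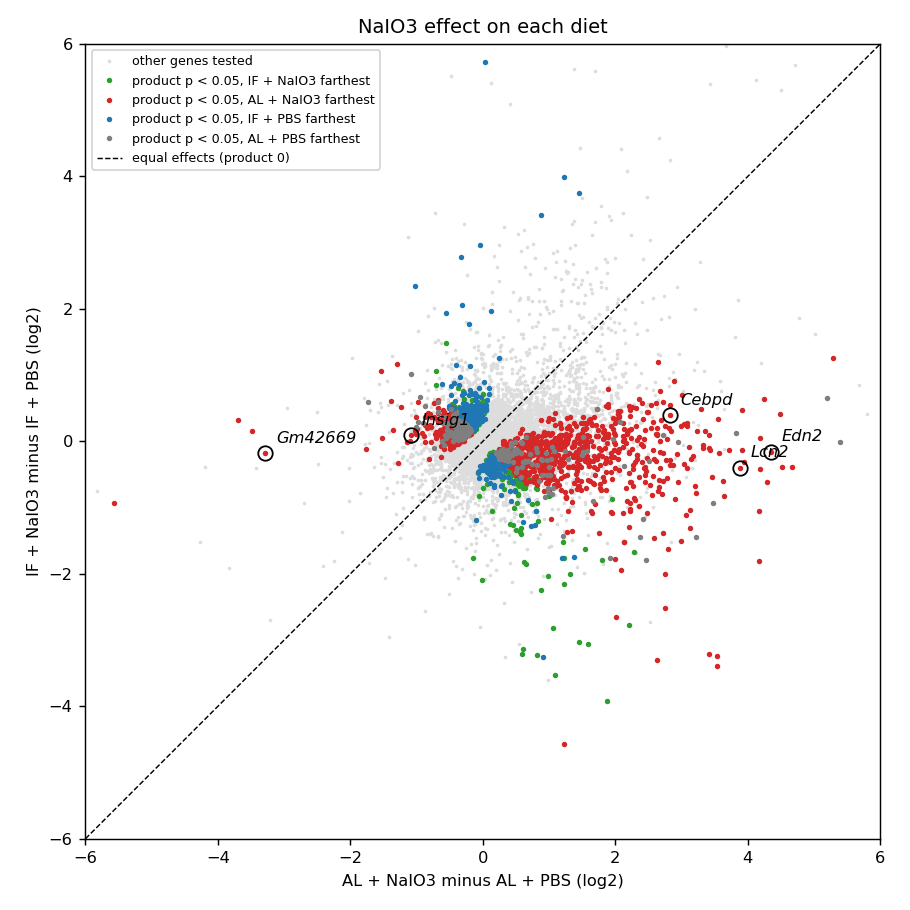
NaIO3 effect of each tested gene on AL (horizontal axis) and on IF (vertical axis), both as log2 fold change. Each effect comes from 6 libraries that the other does not use. The dashed line marks equal effects, circles mark the 5 called genes, colours give the group farthest from the others where the unadjusted p of the product term is under 0.05, and 28 genes lie beyond the axes. The called genes lie far from 0 on the horizontal axis and near 0 on the vertical axis.

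To see which group each product term came from, the group whose mean log2 CPM was farthest from the mean of the other 3 was taken as its driving group. AL + NaIO3 was the driving group of all 5 called genes, with 3 genes high and 2 low there, and its 3 libraries did not overlap the other 9 in any of them. Over all genes tested, AL + NaIO3 was the driving group of 6182 (38.7%) and did not overlap the other 9 libraries in 985 (6.17%). Among the 1910 genes with a product term at an unadjusted p under 0.05, it was the driving group of 1051 (55.0%), with 486 of them not overlapping (25.4%). The share depended on direction. Of the 1099 genes with a product term below 0, 759 (69.1%) had a high AL + NaIO3 mean. Of the 811 genes above 0, 292 (36.0%) had a low AL + NaIO3 mean and 276 (34.0%) a low IF + PBS mean, with 127 (15.7%) driven by a high IF + NaIO3 mean and 116 (14.3%) by a high AL + PBS mean. These shares are descriptions of the same contrast and carry no test. A driving group high or low on 1 side fixes the sign of the product term by arithmetic.

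**Figure D3:**
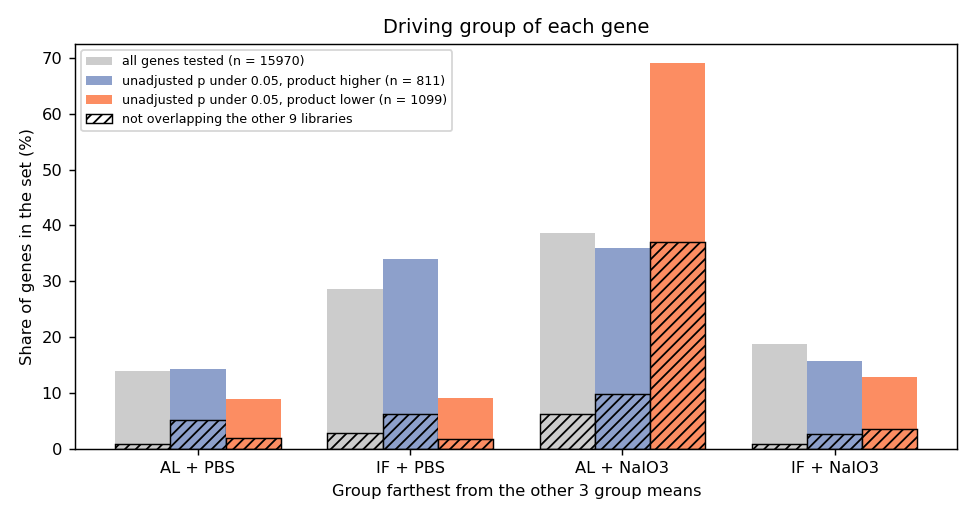
Share of genes (%) for which each group mean is farthest from the other 3, over all 15970 genes tested, the 811 with a product term above 0 and the 1099 below 0 at an unadjusted p under 0.05. Hatched parts are genes whose 3 libraries in that group do not overlap the other 9. AL + NaIO3 takes 69.1% of the genes below 0, and AL + NaIO3 and IF + PBS take similar shares of those above 0.

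Among the 33 lists, the acute phase and STAT3 list was the only one with calls below 0 by edgeR. Of its 19 tested genes, 3 passed (Lcn2, Edn2 and Cebpd), 16 were below 0 at an unadjusted p under 0.05, and the median product term was -2.43, beside -0.02 over all genes. Over all genes tested, 6.88% were below 0 and 5.08% above 0 at that p, the shares to set beside the counts of every list. The acute phase list was drawn up with earlier results of these data known, which single out Lcn2 and Edn2. That it holds their calls is therefore no independent support for it. DESeq2 called 10 of 18 and limma voom 9 of 19, all below 0. Over all genes, DESeq2 called 1.02% below 0 and limma voom 79 of 15970. AL + NaIO3 was the high group for 19 of 19. Gfap, the intermediate filament of astrocytes and reactive Müller cells, was at 12.3 to 23.05 CPM in AL + PBS, 11.2 to 16.0 CPM in IF + PBS, 112, 97.1 and 304 CPM in AL + NaIO3, and 10.7 to 15.8 CPM in IF + NaIO3. Its AL + NaIO3 libraries lay above the other 9, whose groups overlapped, but its product term of -3.37 ± 0.54 missed the threshold (SE, n = 3 per group, adjusted p = 0.0652, edgeR). Serpina3n, a protease inhibitor of reactive astrocytes, had means of 10.4, 9.21, 190.0 and 6.89 CPM in AL + PBS, IF + PBS, AL + NaIO3 and IF + NaIO3 (product -4.60 ± 0.81). The cytokine receptor Osmr (-1.78 ± 0.48), Stat3 itself (-1.17 ± 0.31) and its feedback inhibitor Socs3 (-2.50 ± 0.53) had the same order of group means, with AL + NaIO3 highest. None of these 4 passed the adjusted threshold. Lif, a cytokine ligand of this pathway, had means of 0.965, 0.642, 4.42 and 0.70 CPM in the same order and a product term of -2.06 ± 0.83.

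Antigen presentation and complement genes also had product terms below 0, without a call by edgeR. Against 1.02% of all genes below 0, DESeq2 called 7 of 19 genes of MHC class I, 5 of 8 of MHC class II, 6 of 17 of complement, 3 of 25 interferon-stimulated genes and 1 of 16 chemokine and cytokine genes, all below 0. In MHC class I, 14 of 19 genes were below 0 at an unadjusted p under 0.05 (median -1.29). H2-K1, a class I heavy chain, was at 21.6 to 26.5 CPM in AL + PBS, 23.7 to 36.8 in IF + PBS, 65.2, 80.7 and 119.8 in AL + NaIO3, and 23.6 to 32.3 in IF + NaIO3, with a product term of -1.95 ± 0.31 (adjusted p = 0.0652, edgeR). Its light chain B2m had means of 59.9, 46.2, 181 and 49.0 CPM in the order AL + PBS, IF + PBS, AL + NaIO3 and IF + NaIO3. In MHC class II, 7 of 8 genes were below 0 at that p (median -2.83). Cd74, the invariant chain, was at 24.5, 36.4 and 138 CPM in AL + NaIO3. It was at 8.04 to 11.3 CPM in AL + PBS, at 5.22 to 9.69 CPM in IF + PBS and at 3.80 to 4.50 CPM in IF + NaIO3. The third AL + NaIO3 library held several times the Cd74 of the other two. In the complement list, 11 of 19 genes were below 0 at that p (median -2.10), among them C1qa (-2.59 ± 0.44, adjusted p = 0.0787, edgeR) and C3 (-3.05 ± 0.77). For interferon-stimulated genes the count was 9 of 25 (Gbp2 -2.27 ± 0.55), with a median of -0.81 that lay between -1.19 and -0.50 over 22 alternative settings. For chemokines and cytokines it was 11 of 20 (median -1.48). Ccl5, a T cell and monocyte attractant, reached 1.83, 1.21 and 2.44 CPM in AL + NaIO3 and at most 0.466 CPM elsewhere, from 0 to 15 counts. Of the 20 chemokine and cytokine genes, 7 had at least 10 counts in each library (median -1.05). The rest had fewer in at least 1 library, so the list median rests in part on low counts.

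Markers of macrophages and microglia had product terms of the same sign as these immune genes, and 4 of the markers are also in the complement list, C1qa among them. Of 23 tested markers, 17 were below 0 at an unadjusted p under 0.05 and 22 were below 0 in sign, with a median product term of -2.27. Lyz2, lysozyme of myeloid cells, had means of 14.3, 10.7, 218 and 8.60 CPM in AL + PBS, IF + PBS, AL + NaIO3 and IF + NaIO3. Lymphocyte markers summed to 7.63 to 17.99 CPM in AL + NaIO3 and to 1.84 to 3.23 CPM elsewhere (4 of 11 below 0 at that p). Of these 11 markers, 0 had at least 10 counts in each library, so nothing is drawn from the sign of their product terms. Neutrophil markers summed to 13.7 to 21.5 CPM in all groups (1 of 5). The part of these cells in the product terms of the immune lists was not tested. Without AL + NaIO3 replicate 3, which held the most macrophage RNA, the median product term was -1.04 for macrophage markers and -1.80 for the acute phase list. It was -0.98 for MHC class I, -1.63 for MHC class II and -0.998 for complement. The number of called genes in the acute phase list was 6 in that fit, which called 32 of 16105 genes, 23 of them below 0.

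The sterol synthesis list was the pathway list above 0 with a call by edgeR. Of its 22 genes, 21 had a product term above 0, 14 at an unadjusted p under 0.05, and Insig1 passed (median 0.61). DESeq2 called 8 and limma voom 7 of the 22, all above 0. Over all genes, DESeq2 called 0.398% above 0 and limma voom 86 of 15970. AL + NaIO3 was the low group for 20 of 22. Hmgcs1, which makes HMG-CoA, was at 139.8, 163 and 148 CPM in AL + PBS, 139, 132 and 131 CPM in IF + PBS, 100.3, 80.0 and 71.8 CPM in AL + NaIO3, and 146, 162 and 156 CPM in IF + NaIO3. Its AL + NaIO3 libraries lay below the other 9, with a product term of 1.04 ± 0.17 that missed the threshold (SE, n = 3 per group, adjusted p = 0.0741, edgeR). Idi1, which isomerizes isopentenyl diphosphate, was at 26.7, 22.3 and 16.7 CPM in AL + NaIO3 and at 35.6 to 46.3 CPM elsewhere (1.18 ± 0.21). The cholesterol carrier Stard4 had means of 29.96, 26.6, 19.5 and 33.7 CPM in AL + PBS, IF + PBS, AL + NaIO3 and IF + NaIO3 and a product term of 0.97 ± 0.17. Srebf2, which encodes SREBP2, was at 0.26 ± 0.14, and the late enzyme Dhcr7 at 0.01 ± 0.15. Mvk, Pmvk and Mvd, the 3 enzymes that turn mevalonate into isopentenyl diphosphate, were at 0.19 ± 0.18, -0.14 ± 0.15 and 0.17 ± 0.27. Abca1, which exports cholesterol and was named after its values were seen, had means of 46.6, 43.3, 133 and 55.7 CPM in the same order and a product term of -1.16 (unadjusted p = 0.000188, edgeR).

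**Figure D4:**
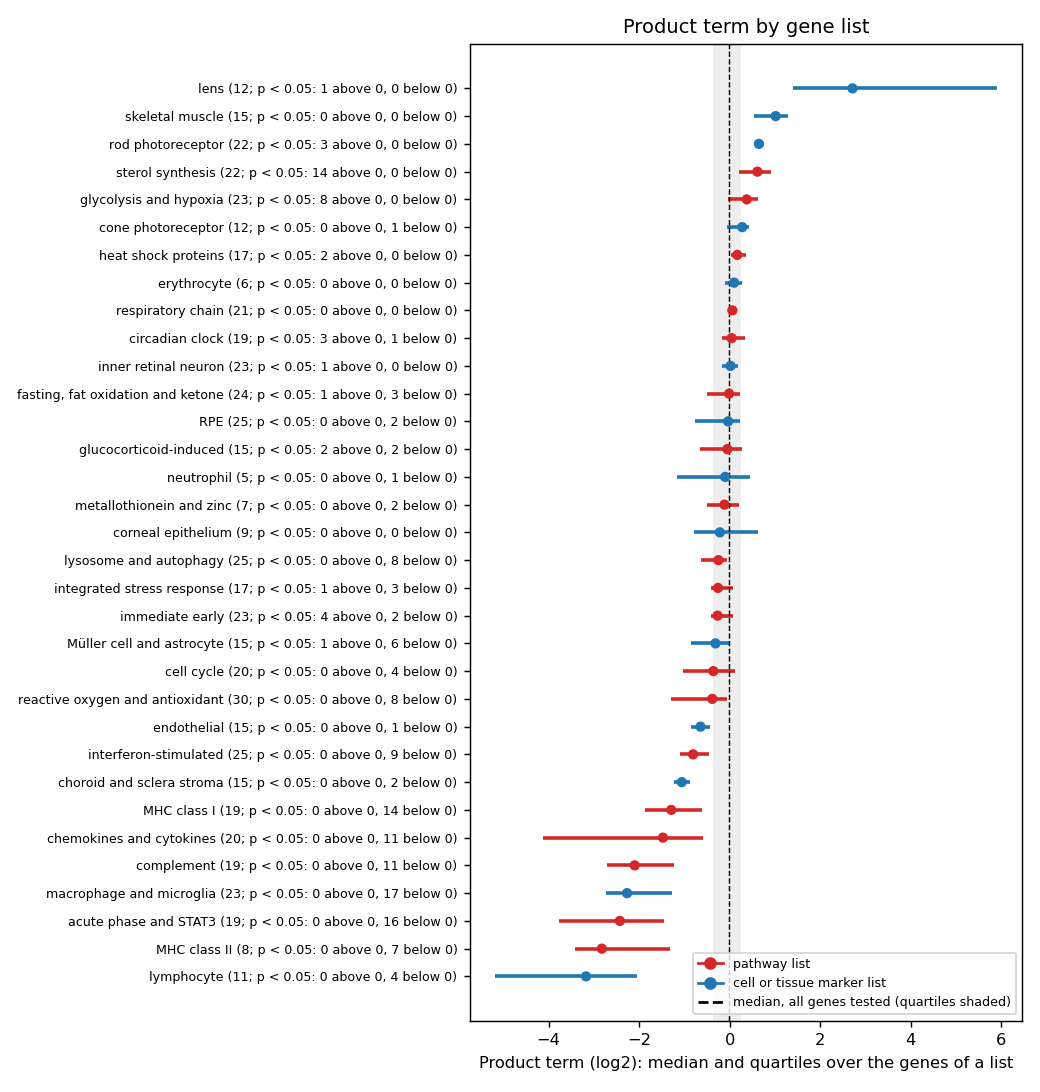
Product term (log2) of the genes in each of 33 lists, as median (point) and quartiles (line), with the number tested and the numbers at an unadjusted p under 0.05 above and below 0. The dashed line and shading are the median and quartiles of all genes tested. The quartile lines of the acute phase, interferon, MHC, complement, chemokine, macrophage, lymphocyte, endothelial and stroma lists lie wholly to the left of the shading. That of neutrophil markers (median -0.10) crosses it. Rod photoreceptor (median 0.64), skeletal muscle and lens lie wholly to its right, and sterol synthesis (median 0.61) starts just inside its right edge.

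The glycolysis and rod lists had medians above 0, without a call by edgeR. In the glycolysis and hypoxia list, 8 of 23 genes were above 0 at an unadjusted p under 0.05, against 5.08% of all genes tested. With edgeR 0 passed the adjusted threshold, and DESeq2 called 3, all above 0, against 0.398% of all genes above 0. The median was 0.37, with 6 of 23 below 0. Hk2, hexokinase 2, which is the main hexokinase of photoreceptors, was at 649, 644 and 642 CPM in AL + PBS, 443, 342 and 334 CPM in IF + PBS, 384, 268 and 172 CPM in AL + NaIO3, and 445, 558 and 592 CPM in IF + NaIO3. IF after PBS and NaIO3 on AL were both below AL + PBS, while the IF + NaIO3 mean lay between, so that the product term was 1.74 ± 0.33 (SE, n = 3 per group, adjusted p = 0.0951, edgeR). Slc16a3, a lactate exporter that is not in the list, was at 76.5 to 78.7 CPM in AL + PBS, 42.8 to 59.1 in IF + PBS, 32.8 to 45.0 in AL + NaIO3 and 52.1 to 64.5 in IF + NaIO3 (1.23 ± 0.20, adjusted p = 0.0707, edgeR). Pfkl, a phosphofructokinase, was highest in AL + PBS, with means of 524, 383, 342 and 383 CPM. Of the 22 rod markers, 21 had a product term above 0 and 3 an unadjusted p under 0.05 (Pdc, Rp1 and Abca4), with a median of 0.64. Pdc, phosducin, was at 2277, 1338 and 567.2 CPM in the 3 AL + NaIO3 libraries and at 1942 to 3236 CPM elsewhere, so 1 of the 3 was within the range of the other groups. Without AL + NaIO3 replicate 3 the median of the rod list was 0.28, and without replicate 1 it was 1.12. Markers of inner retinal neurons had a median of 0.01 and sums of 3215 to 3702 CPM over all libraries. Cone markers had a median of 0.27, which lay between 0.08 and 0.48 over 22 alternative settings. The cone transducin gene Gnb3 went the other way and was the single cone marker of 12 at an unadjusted p under 0.05: it was at 401, 482 and 736 CPM in AL + NaIO3 and at 242 to 330.2 CPM in the other 9 libraries (-1.17 ± 0.26, adjusted p = 0.182, edgeR), and DESeq2 called it. In the Müller cell and astrocyte list, 6 of 15 genes were below 0 at that p and 1 above, with Gfap, Vim (-1.05 ± 0.21) and Apoe (-1.56 ± 0.31) first and the resting Müller enzyme Glul at 0.35 ± 0.17.

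**Figure D5:**
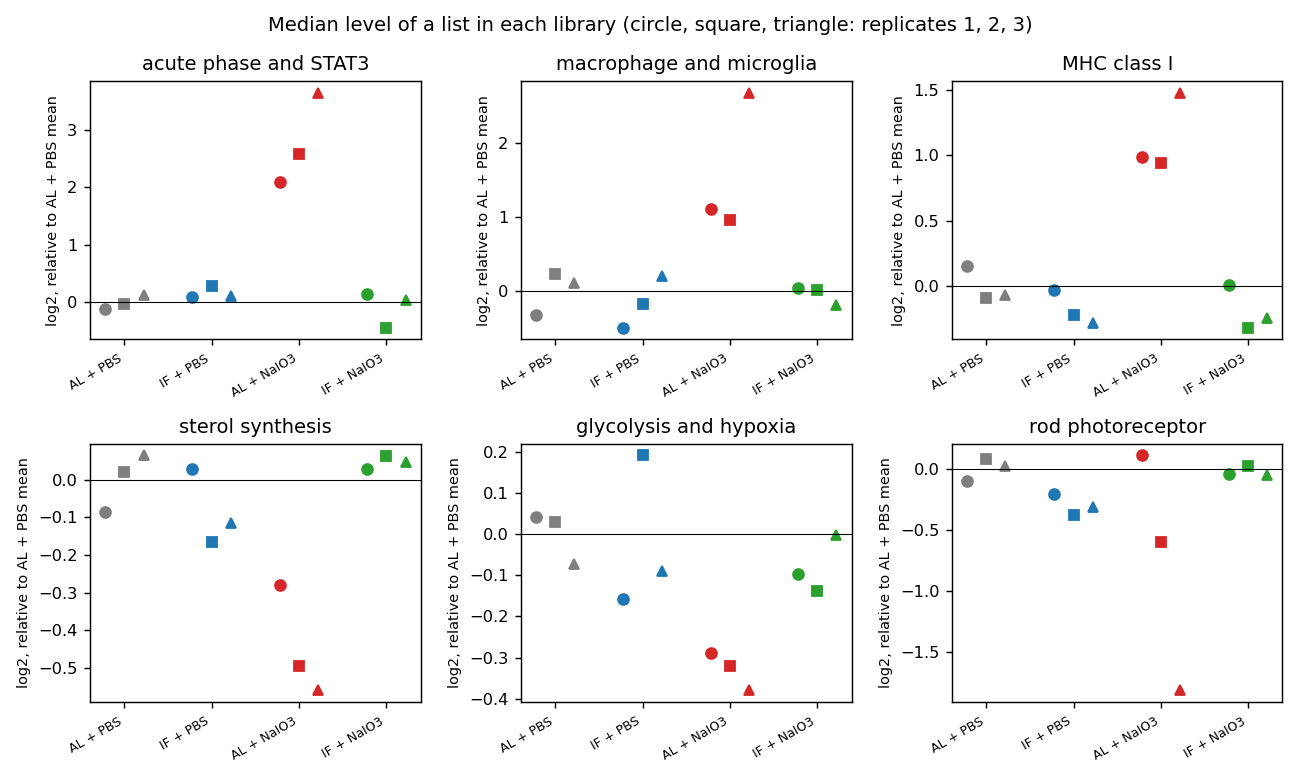
Median log2 CPM of 6 gene lists in each library, relative to the mean of the 3 AL + PBS libraries. Symbols are replicates 1, 2 and 3. Replicate 3 of AL + NaIO3 lies farthest from 0 in all 6 lists, at 3.64 for the acute phase list and -1.81 for rod markers, while replicate 1 is at 2.08 and 0.11.

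Immediate early genes are induced within minutes of neuronal activity or handling. IF + PBS was the driving group of 5 of the 23 tested genes of this list, Egr1, Fos and Nr4a1 among them, and AL + NaIO3 of 16. Over all genes IF + PBS was the driving group of 28.6%, and the 3 genes are given as single genes. Egr1 was at 54.8, 115 and 129 CPM in AL + PBS, 30.4, 21.8 and 19.1 CPM in IF + PBS, 116, 83.7 and 59.2 CPM in AL + NaIO3, and 53.5, 98.3 and 91.3 CPM in IF + NaIO3. The IF + PBS libraries lay below the other 9, and the other 3 groups overlapped. Its product term was 1.98 ± 0.47 (SE, n = 3 per group, adjusted p = 0.206, edgeR), and it passed with DESeq2 (adjusted p = 0.00289) and without AL + NaIO3 replicate 1 (adjusted p = 0.0389), but under none of the other 20 alternatives. DESeq2 called 3 of the 23 genes of the list, all above 0, against 0.398% of all genes above 0. IF + PBS was also the lowest group mean of Fos, with means of 50.3, 22.6, 51.0 and 42.1 CPM in AL + PBS, IF + PBS, AL + NaIO3 and IF + NaIO3, and Nr4a1 means of 66.5, 31.5, 49.3 and 57.8 CPM. In the list of 23, 4 genes were above 0 at an unadjusted p under 0.05 and 2 below, Fosl2 being highest in AL + NaIO3. Over all genes tested these shares were 5.08% and 6.88%. The median was -0.27 and lay between -0.36 and -0.11 over 22 alternative settings. Dusp1, a phosphatase of the stress kinases, was also in the glucocorticoid-induced list (1.13 ± 0.28), which had 2 genes on either side of 0 at that p among 15.

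Hipk1, a nuclear kinase gene that earlier results of these data single out, was driven by IF + NaIO3. Its coordinates overlap those of Gm10964, so reads could have been divided, as for Slc16a3 with Csnk1d, Dusp1 with Ergic1, Cyba with Galnt2l, Ctsz with Nelfcd and Cryba1 with Nufip2. It was at 110.4, 118 and 118 CPM in AL + PBS, 113, 107 and 125 CPM in AL + NaIO3, 10.99, 16.9 and 23.04 CPM in IF + NaIO3, and 17.6, 98.2 and 101 CPM in IF + PBS. One IF + PBS library thus lay among the IF + NaIO3 values. The product term was -2.09 ± 0.64 (SE, n = 3 per group, adjusted p = 0.283, edgeR). Without IF + PBS replicate 1 it was -2.56 and passed (adjusted p = 0.00815, edgeR), and that library also had the lowest skeletal muscle marker sum, at 50.4 CPM against 116.5 to 471 CPM in the others.

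The other lists had no call by edgeR. At an unadjusted p under 0.05, 6.88% of all genes tested were below 0 and 5.08% above 0, and counts near these shares are not read as results. In the reactive oxygen and antioxidant list, 8 of 30 genes were below 0 at an unadjusted p under 0.05. The median was -0.39 and lay between -0.54 and -0.16 over 22 alternative settings. The oxidase subunit Cyba was at -2.21 ± 0.50 and the heme oxygenase gene Hmox1 at -2.33 ± 0.62. Lysosome and autophagy genes gave 8 of 25 below 0 (median -0.25, Ctsz -1.22 ± 0.33), and the integrated stress response 3 of 17 below and 1 above (median -0.26, Nupr1 -1.77 ± 0.36). Over the 22 settings these medians lay between -0.38 and -0.12 and between -0.41 and -0.13. Metallothionein genes gave 2 of 7 below 0, with Mt2, which binds zinc, at 66.6, 80.3 and 88.5 CPM in AL + NaIO3 and 26.3 to 47.6 CPM elsewhere (-1.49 ± 0.28). Respiratory chain genes gave 0 of 21 on either side (median 0.06), and heat shock proteins 2 of 17 above (median 0.16). Fat oxidation and ketone genes, which fasting is known to induce in liver, gave 1 above and 3 below of 24 (median -0.02), and clock genes 3 above and 1 below of 19 (median 0.04). Cell cycle genes gave 4 of 20 below (median -0.36, between -0.49 and -0.12 over the 22 settings). Of 25 RPE markers, 2 were below 0 at that p, both pigment genes: Tyrp1 was at 639 CPM in AL + NaIO3 replicate 3 and at 12.9 to 47.3 CPM in the other 11 libraries. Without that library its product term turned from -3.08 to 0.21. Rpe65, the isomerase of the visual cycle, had means of 119.6, 142, 48.5 and 93.4 CPM in AL + PBS, IF + PBS, AL + NaIO3 and IF + NaIO3 and a product term of 0.69 ± 0.33. The lens list had the highest median, 2.71, which was 0.28 without AL + PBS replicate 2, and Cryba1, a lens crystallin, was at 30.3 CPM in that library and at 1.28 CPM or below elsewhere. Stroma markers (median -1.06) were at -0.01 without AL + NaIO3 replicate 3. Endothelial markers had a median of -0.65 (1 of 15 below 0 at that p), skeletal muscle 1.01 (0 of 15), erythrocyte 0.09 (0 of 6) and corneal epithelium -0.22 (0 of 9). The lymphocyte median was -3.18, and it was -0.49 and -1.87 on FPKM with pseudocounts of 1 and 0.1. It rests on low counts, because 0 of the lymphocyte markers had at least 10 counts in each library. With 1 library left out, the median of the corneal list was 2.44 without AL + NaIO3 replicate 2, which held 860 CPM of its markers against 275 to 400 CPM elsewhere, that of the endothelial list -0.19 without AL + NaIO3 replicate 3, and that of skeletal muscle between 0.42 (without IF + NaIO3 replicate 3) and 1.47 (without IF + PBS replicate 2). The erythrocyte median lay between -0.20 without AL + NaIO3 replicate 2 and 0.43 without AL + NaIO3 replicate 3.

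The number of genes called by the product term depended most on the AL + NaIO3 libraries. Leaving out 1 library of the other groups gave between 3 and 11 calls. Leaving out AL + NaIO3 replicate 1, in which the rod markers were not low, gave 366 calls, 161 above and 205 below 0. Leaving out replicate 2 gave 15 and replicate 3 gave 32, and all 32 were among the 366. The 366 are 2.26% of the 16207 genes tested in that fit. They included 10 of 19 acute phase genes, 9 of 22 sterol genes, 7 of 23 macrophage markers, 6 of 23 glycolysis genes and 5 of 22 rod markers, and none of 20 chemokine and cytokine, 25 RPE, 23 inner retinal neuron, 21 respiratory chain, 20 cell cycle or 19 clock genes. The 5 genes called from all libraries were in each of the 3 sets. The median SD of log2 CPM in AL + NaIO3 was 0.26 without replicate 1, 0.32 without replicate 2 and 0.20 without replicate 3.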

How the data were processed

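RNA-seq was performed on eye tissue in 12 libraries, 3 per group, each taken to be a separate mouse. Groups and replicate numbers were taken from the sample labels. The deposited counts are whole numbers of reads per gene without normalization, and the authors also deposited FPKM values, used here in an alternative only. The submitters' processing notes name HISAT2, StringTie, DESeq2 and edgeR without roles. The counting tool, annotation and use of strand are not given in the sources used here, and the kit keeps strand. The notes name GRCm39, but 15742 of 15743 tested genes matched by symbol overlap their RefSeq position on GRCm38.p6, so coordinates are GRCm38 and promoters are RefSeq sequences on GRCm38.p6. A deposited table of the authors' comparison (fold changes, p-values, group means and repeated counts and normalized values) was not used. Columns of per-sample values left unassigned numbered 0.

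Counts were filtered with filterByExpr, scaled by TMM and fitted in R 4.3.3 with edgeR 4.0.16 (glmQLFit and glmQLFTest) over the 12 libraries with diet, injection and their product, leaving 8 residual degrees of freedom. Tests were two-sided with Benjamini-Hochberg adjustment over 15970 genes and a threshold of 0.05. CPM values use TMM-scaled library sizes, and log2 CPM a prior count of 2. P-values rest on the spread between mice within groups, estimated once per gene for the 4 groups together and moderated across genes. Each SE is the absolute log2 effect divided by the square root of the test's F statistic, so it rests on the same shared spread. The median SD of log2 CPM was 0.31 in AL + NaIO3 and 0.14 to 0.19 in the other groups, a difference that the shared estimate does not take into account. At 26364665 to 43046950 counts per library, 3 counts correspond to at most 0.114 CPM. The script was tested on simulated data. Alternatives were DESeq2 1.42.0, RLE and upper quartile scaling, no filter or at least 10 counts per library, limma 3.58.1 (voom with quality weights, and FPKM with a pseudocount of 1 or 0.1), a replicate block, robust dispersion, a fold threshold of 1.5, and leaving out each library.

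Genes named were the called genes, or the 10 with the lowest p where a direction had fewer than 3 calls, leaving out unnamed gene models and genes below 1 CPM in every group; from each of the 33 lists the gene with the lowest p; and Edn2, Lcn2 and Hipk1. Other list genes were chosen after their values were seen. The members and lists were chosen with earlier results of these data known.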

Additional observations from a re-analysis of the deposited data

Results flagged for a closer look

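The NaIO3 effect differed between the diets, by the test of the product term itself (edgeR's quasi-likelihood test with Benjamini-Hochberg adjustment), in 5 genes. The difference, as NaIO3 effect on IF minus NaIO3 effect on AL in log2, was -4.28 for Lcn2, -4.50 for Edn2, -2.43 for Cebpd, 1.17 for Insig1 and 3.10 for Gm42669. In each of them all 3 AL + NaIO3 libraries lay outside the range of the other 9.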

How the results depend on the processing

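The product term of Lcn2, Edn2 and Cebpd kept its direction and passed the threshold in 22 of 22 settings, and that of Insig1 in 21. The count of 5 calls was 5 with RLE or upper quartile scaling, with at least 10 counts per library and with robust dispersion. It was 217 with DESeq2, 13 without a filter, 165 with limma voom and quality weights, 14 on FPKM with a pseudocount of 1, 8 with the replicate block, and between 3 and 366 with 1 library left out. For the average injection effect the count was 338, 38, 137, 12 and 11 in the same order, 9 on FPKM with a pseudocount of 0.1, and between 7 and 118 with 1 library left out. For the average diet effect it was 723 with DESeq2, 60 without a filter, 360 with voom, 16 and 21 on FPKM with pseudocounts of 1 and 0.1, and between 6 and 302 with 1 library left out. Of 38 diet calls 68.4% were lower, and with upper quartile scaling 80.0% of 35. The cause of these differences was not tested.

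The driving group among genes at an unadjusted p under 0.05 was AL + NaIO3 in between 705 and 2459 genes with 1 library left out, IF + PBS in between 184 and 1036, IF + NaIO3 in between 146 and 524, and AL + PBS in between 133 and 300. The product term of Tyrp1 was between -3.63 and 0.21 with 1 library left out, with the higher value without AL + NaIO3 replicate 3. Of the 39 named genes that did not pass, 27 passed in at least 1 setting and 12 in none. On FPKM with a pseudocount of 0.1 the median product term of all genes was -0.14, against -0.02 on counts. Replicate numbers did not pair the libraries: the deviations of same-numbered libraries correlated at between -0.10 and 0.14, over 0.1 in 1 of 18 pairs, so the replicate block is an alternative only. With 3 mice per group, product terms near the threshold are decided by single libraries.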
